A study of Homo sapiens with 4 samples.

Results

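The genes of the mitochondrial ribosome were examined in the neuroblastoma line SK-N-BE(2) after knockdown of METTL14. The members were the protein-coding genes whose symbol is MRPL or MRPS followed by a number, which left 78 genes out of 60671 gene IDs in the count table. Of these, 49 were MRPL genes, named for the large subunit, and 29 were MRPS genes, named for the small subunit. The same symbols also begin the names of 79 pseudogenes and 7 non-coding genes, which were not members.

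SK-N-BE(2) is an established human line with amplified MYCN. The control group carried a control short hairpin RNA (shNC) and the other group a hairpin against METTL14 (shMETTL14), with 2 libraries each. METTL14 is the partner of METTL3 in the enzyme that places N6-methyladenosine on RNA, and the comparison asked which transcripts differed when less of it was made. The labels call the libraries replicates without saying that they came from separate cultures or which hairpin was used, so p-values measure the spread between these libraries only.

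The mitochondrial ribosome sits in the mitochondrial matrix and translates only the few mRNAs of the mitochondrial genome, all of which encode subunits of the respiratory chain and ATP synthase. Its rRNAs are made from mitochondrial DNA, whereas every one of its proteins is encoded in the nucleus, translated in the cytosol and imported. Some of these proteins descend from those of the bacterial ribosome and others were added in mitochondria, so its protein shell is larger than that of bacteria. Demand for it is high in cells that respire and divide, and MYC family factors are known regulators of ribosome production.

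The targeted gene was checked first. METTL14 had 753 and 754 counts in the shNC libraries and 303 and 321 in the shMETTL14 libraries, a log2 fold change of -1.26 (SE 0.0832, n = 2 per group, edgeR adjusted p = 3.6e-11). Between 18925786 and 19886214 counts fell in genes per library. Among noradrenergic markers of neuroblastoma, HAND2 and DBH were detected in every library and were lower in shMETTL14 (log2 fold changes -0.29 and -0.79), and ISL1 and MYCN were higher (0.28 each). Markers of blood summed to at most 2.19 CPM, of epithelium to at most 5.33 and of endothelium to at most 0.312. The 5 mesenchymal or fibroblast markers summed to between 396 and 410 CPM. CPM is a gene's counts per 1000000 counts of the library, whose size was scaled by TMM.

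Most mitochondrial ribosomal protein genes had more RNA in the knockdown cells, by a small amount. By edgeR's quasi-likelihood test with Benjamini-Hochberg adjustment, 50 of the 76 members tested were higher in shMETTL14 and 5 were lower at adjusted p under 0.05, and 21 passed in neither direction. Of all 16309 genes tested, 27.2% were higher and 25.3% were lower. With upper quartile scaling this split became 3550 higher and 4961 lower, and 45 members were higher and 9 lower. Of 12809 protein-coding genes tested, 33.0% were higher and 25.6% lower (median log2 fold change 0.036). In their top quartile by expression level, 20 of 23 members were higher and 2 lower, beside 43.9% and 27.4% of other genes. In the third quartile, 22 of 39 members were higher and 3 lower, beside 39.9% and 24.1%. The part of expression level was not tested. The median log2 fold change of the members was 0.27, beside -0.001 over all genes tested, and the 50 higher members ranged from 109% of the control mean (MRPL3) to 229% (MRPL41). In 56 members both shMETTL14 libraries were above both shNC libraries, and in 8 both were below, beside 38% and 37.6% of all genes tested. DESeq2 called 44 members higher and 3 lower, where it called 19.2% of 16391 genes higher and 14.7% lower. In bulk RNA, a change in the kinds of cells present and a change in RNA per cell cannot be told apart, and an exact permutation of 2 against 2 libraries cannot give a two-sided p below 0.333 for a single value.

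**Figure D1:**
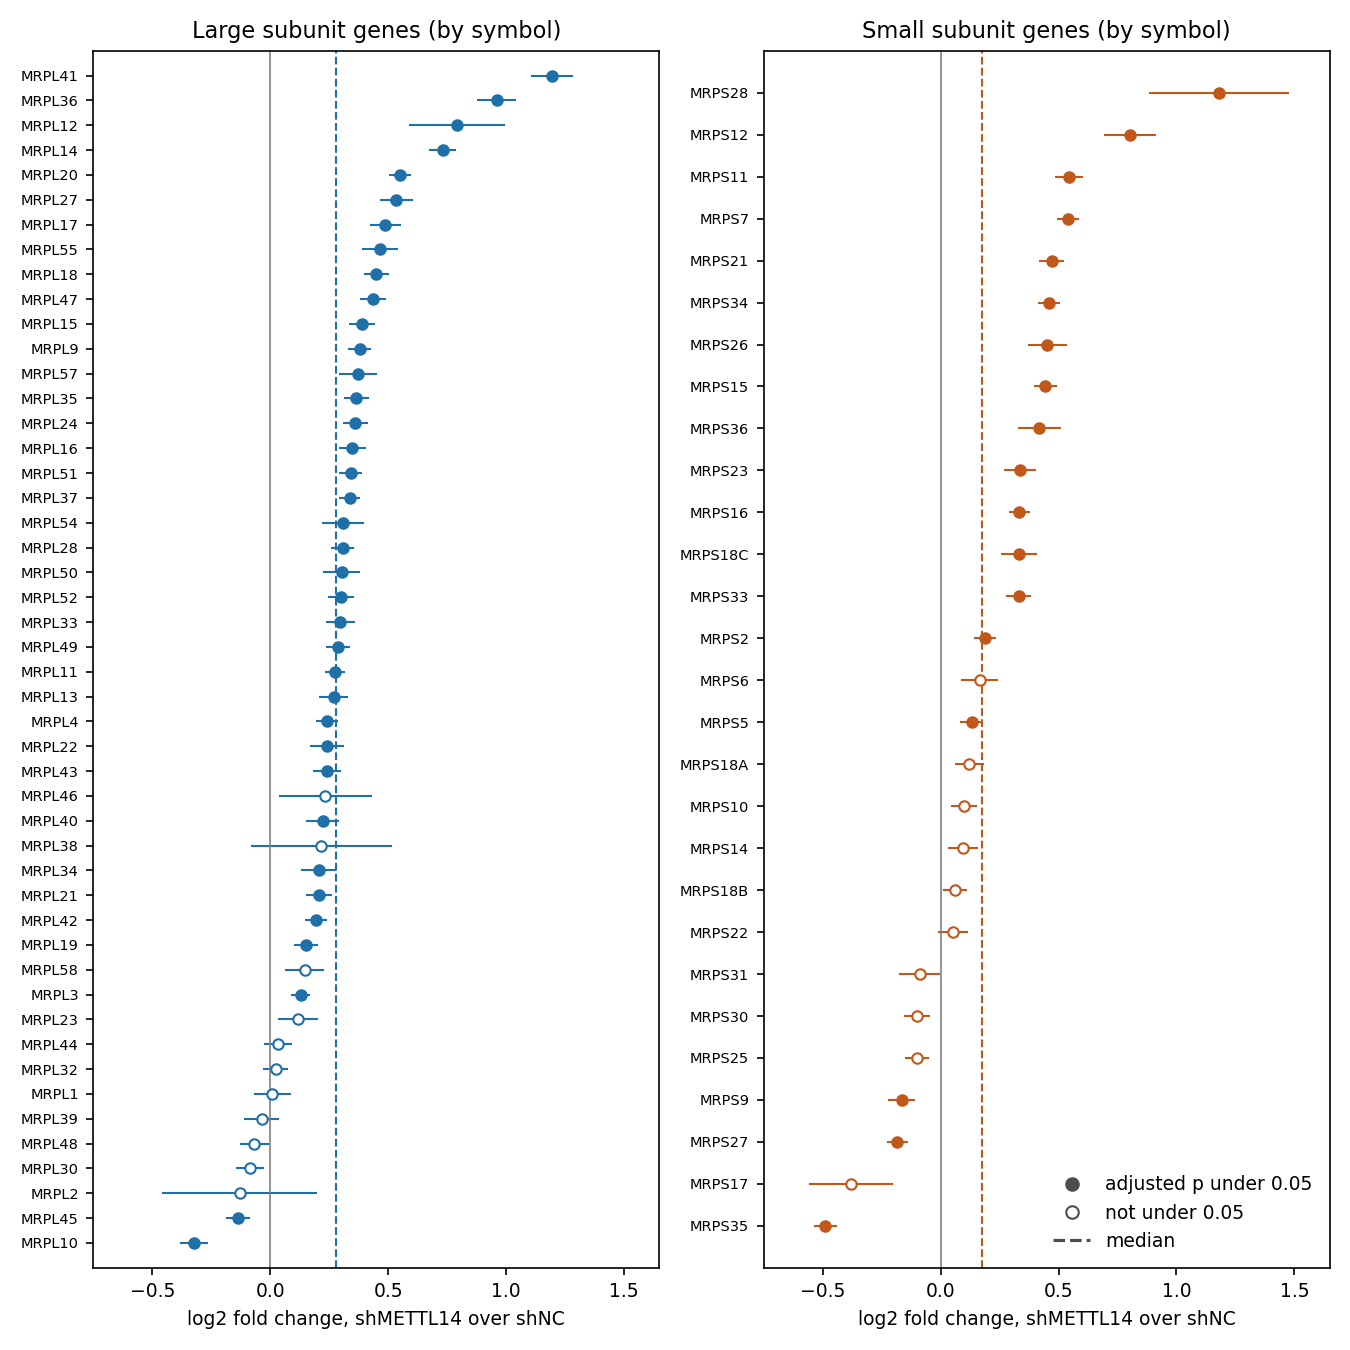
Log2 fold change (shMETTL14 over shNC) of the 48 large and 28 small subunit genes tested, with bars of 1 SE. Filled points passed edgeR's adjusted p of 0.05 and dashed lines mark the subunit medians of 0.28 and 0.18. Points lie mostly right of 0 in both panels, with MRPL41 at 1.19 and MRPS35 at -0.49 as the ends.

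The large and the small subunit both shifted upward. Of 48 large subunit genes tested, 35 were higher (72.9%) and 2 were lower, with a median log2 fold change of 0.28. Of 28 small subunit genes tested, 15 were higher (53.6%) and 3 were lower, with a median of 0.18, and with upper quartile scaling 14 were higher and 6 lower. Large subunit RNAs summed to 2776 and 2854 CPM in the shNC libraries and to 3366 and 3494 CPM in the shMETTL14 libraries, 122% of the control mean. Small subunit RNAs summed to 1643 and 1690 CPM in shNC and to 1884 and 1937 CPM in shMETTL14, 115% of the control mean. In both subunits the 2 shMETTL14 sums were above the 2 shNC sums. The ratio of the large to the small sum was 1.689 in both shNC libraries and 1.787 and 1.804 in the shMETTL14 libraries, a log2 difference of 0.088. The difference between the subunits was not tested.

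A symbol does not always give the place of the protein. MRPS30 and MRPS18A lie in the large subunit of the mammalian structure, and MRPS36 is now assigned to the 2-oxoglutarate dehydrogenase complex, where RefSeq lists it as KGD4. With genes placed by structure, 35 of 50 large subunit genes were higher and 2 lower (median 0.27), and 14 of 25 small subunit genes were higher and 3 lower (median 0.19). The log2 difference of the ratio was then 0.067. MRPS36 itself had 368 and 410 counts in shNC and 502 and 532 in shMETTL14, and rose by 0.42 on the log2 scale (SE 0.0909, edgeR adjusted p = 0.00053).

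The changes were mostly below 1.5-fold. In edgeR's test, 4 large subunit genes (MRPL41, MRPL36, MRPL12 and MRPL14) and 2 small subunit genes (MRPS28 and MRPS12) were called and at least 1.5-fold higher, beside 7.44% of all genes tested. Of the coding bases of MRPL12 and MRPS28, 96% and 53% lie inside exons of another gene on the same strand. At least 1.5-fold lower were 11.4% of all genes tested, whereas the 5 members called lower lay at 71.3% of the control mean or above.

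Among large subunit genes, the largest increase was that of MRPL41, whose protein is specific to mitochondria. This gene of 2 exon blocks lies on chromosome 9 (137551199 to 137552555, plus strand, GRCh38). It had 765 and 933 counts in shNC and 1726 and 2137 in shMETTL14, or 38.4 and 48.7 CPM against 88.2 and 111 CPM. Both knockdown libraries were above both controls, with means of 99.6 CPM ± 16.2 and 43.6 CPM ± 7.31 (SD, n = 2). This was a log2 difference of 1.19 (SE 0.0899, adjusted p = 3.2e-10 in edgeR).

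MRPL36, the counterpart of bacterial L36 and among the smallest proteins of the ribosome, rose to 195% of its control mean. Its counts were 407 and 354 in shNC and 705 and 765 in shMETTL14 (log2 fold change 0.96, SE 0.0845, edgeR adjusted p = 3.7e-09). It lies on chromosome 5 (1798386 to 1801366, minus strand) and starts 34 bases from NDUFS6, a gene for a respiratory complex I subunit that is transcribed in the opposite direction. NDUFS6 also rose, from 1641 and 1629 counts to 2344 and 2542 (log2 fold change 0.59, SE 0.051, edgeR adjusted p = 2.9e-09).

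MRPL14, which contacts the small subunit across the ribosome's interface, had 901 and 830 counts in shNC and 1402 and 1453 in shMETTL14. It rose by 0.73 on the log2 scale (SE 0.0578, edgeR adjusted p = 6.6e-10), and the groups did not overlap. MRPL20, an early binder of large subunit rRNA in bacteria, rose by 0.55 on the log2 scale (edgeR adjusted p = 2.9e-09), with 84 and 90.4 CPM in shNC against 128 CPM in each shMETTL14 library. MRPL27, a protein near the peptidyl transferase centre, rose by 0.53, with 37.1 and 41.8 CPM in shNC and 53.9 and 60.3 CPM in shMETTL14.

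The stalk of the large subunit, which recruits translation factors, had members in opposite directions. MRPL12, the stalk protein that is also known to bind the mitochondrial RNA polymerase, had 99 and 86 counts in shNC and 117 and 201 in shMETTL14 (log2 fold change 0.79, SE 0.203, edgeR adjusted p = 0.0024). That call rested on 1 library: without shMETTL14 replicate 2 the log2 fold change was 0.34, with an edgeR adjusted p of 0.19. MRPL10, which anchors MRPL12 to the ribosome, had 1227 and 1193 counts in shNC and 999 and 924 in shMETTL14. It fell by 0.32 on the log2 scale (SE 0.0583, edgeR adjusted p = 7.7e-05), to 80% of the control mean, with no overlap between the groups. MRPL11, at the base of the stalk, rose from 135 and 128 CPM to 160 and 159 CPM, a log2 fold change of 0.27.

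Around the exit of the peptide tunnel lie higher and lower members. MRPL17, MRPL22, MRPL24 and MRPL47 rose, with log2 fold changes of 0.49, 0.24, 0.36 and 0.44. MRPL22 was not called without shMETTL14 replicate 2 (0.18, adjusted p = 0.07) or without shNC replicate 1 (0.13, adjusted p = 0.15). MRPL45, which helps to dock the ribosome at the inner membrane, had 1455 and 1415 counts in shNC and 1301 and 1294 in shMETTL14, a log2 fold change of -0.14 (SE 0.051, edgeR adjusted p = 0.03). Its call did not hold without shMETTL14 replicate 1 (-0.12, adjusted p = 0.16), without shMETTL14 replicate 2 (-0.14, adjusted p = 0.13) or without shNC replicate 2 (-0.12, adjusted p = 0.11). MRPL39, MRPL44 and MRPL23 passed in neither direction, at -0.04, 0.03 and 0.12.

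In the central protuberance, MRPL18, MRPL40 and MRPL52 rose by 0.45, 0.22 and 0.30 on the log2 scale, and MRPL40 was not called without shNC replicate 1 (0.11, adjusted p = 0.26). MRPL38, MRPL46 and MRPL48 were not called, at 0.22, 0.23 and -0.07. MRPL58, a peptidyl-tRNA hydrolase that can release stalled peptides and was taken into the subunit, had 597 and 680 counts in shNC and 692 and 713 in shMETTL14 (0.15, edgeR adjusted p = 0.14). Without shNC replicate 2 it was called higher, at 0.28 (adjusted p = 0.013). MRPS30 is placed in the large subunit by structure, with no site within it given here. This gene had 1313 and 1342 counts in shNC and 1237 and 1224 in shMETTL14 (-0.10, edgeR adjusted p = 0.13). Its groups did not overlap.

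Apart from MRPS28, which had few counts, the largest increases among small subunit genes were those of MRPS12, MRPS11, MRPS7 and MRPS21. MRPS12, the counterpart of bacterial S12 at the decoding centre, lies on chromosome 19 (38930548 to 38933162, plus strand). It had 226 and 290 counts in shNC and 462 and 433 in shMETTL14, with 16.3% of its exon bases shared with SARS2 on the other strand (log2 fold change 0.80, SE 0.111, edgeR adjusted p = 2.7e-06). MRPS11, a protein of the platform, had 948 and 883 counts in shNC and 1371 and 1282 in shMETTL14 (0.54, SE 0.0577, adjusted p = 6.1e-08). MRPS7, which organises the head of the subunit, had 1535 and 1525 counts in shNC and 2239 and 2183 in shMETTL14 (0.54, SE 0.0467, adjusted p = 2.9e-09). MRPS21 had 1825 and 1935 counts in shNC and 2518 and 2659 in shMETTL14 (0.47, SE 0.0516, adjusted p = 1.1e-07). In each of these 4 genes both knockdown libraries were above both controls.

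Small subunit genes that fell numbered 3. MRPS35, a mitochondria-specific protein of the head, had 1740 and 1678 counts in shNC and 1229 and 1191 in shMETTL14. It fell by 0.49 on the log2 scale (SE 0.0501, edgeR adjusted p = 3.7e-08), to 71.3% of the control mean, and had the largest decrease among the members called. The gene lies on chromosome 12 (27710773 to 27756295, plus strand). MRPS27, a mitochondria-specific protein of the body with RNA-binding repeats, had 2579 and 2500 counts in shNC and 2204 and 2239 in shMETTL14, and fell by 0.18 (adjusted p = 0.0014). MRPS9, the counterpart of bacterial S9 whose tail reaches toward the decoding site, had 1278 and 1171 counts in shNC and 1119 and 1049 in shMETTL14, a log2 fold change of -0.17 (adjusted p = 0.018). MRPS9 was not called without shMETTL14 replicate 2 (-0.12, adjusted p = 0.2) or without shNC replicate 1 (-0.14, adjusted p = 0.11).

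The remaining members tested follow by subunit. In the large subunit, 20 more genes were higher (MRPL3, MRPL4, MRPL9, MRPL13, MRPL16, MRPL19, MRPL21, MRPL28, MRPL33, MRPL34, MRPL35, MRPL37, MRPL42, MRPL43, MRPL49, MRPL50, MRPL51, MRPL54, MRPL55 and MRPL57), with log2 fold changes from 0.13 for MRPL3 to 0.46 for MRPL55. MRPL1 and MRPL32 were not called, at 0.01 and 0.02. In the small subunit, MRPS2, MRPS5, MRPS15, MRPS16, MRPS23, MRPS26 and MRPS33 were higher, from 0.13 for MRPS5 to 0.45 for MRPS26, and MRPS6, MRPS10, MRPS14, MRPS22, MRPS25 and MRPS31 were not called, between -0.10 and 0.17.

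Calls near the threshold depended on single libraries. MRPS5 was not called when any 1 of the 4 libraries was left out (0.13 to 0.14, adjusted p = 0.062 to 0.11). MRPL3, MRPL19 and MRPL34 were not called without shNC replicate 1 (0.11, 0.13 and 0.09) or without shMETTL14 replicate 2 (0.13, 0.14 and 0.13). MRPL54 was not called without shNC replicate 1 (0.17) and MRPL21 without shMETTL14 replicate 2 (0.16). MRPS6 was called higher without shMETTL14 replicate 1 (0.25, adjusted p = 0.031).

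**Figure D2:**
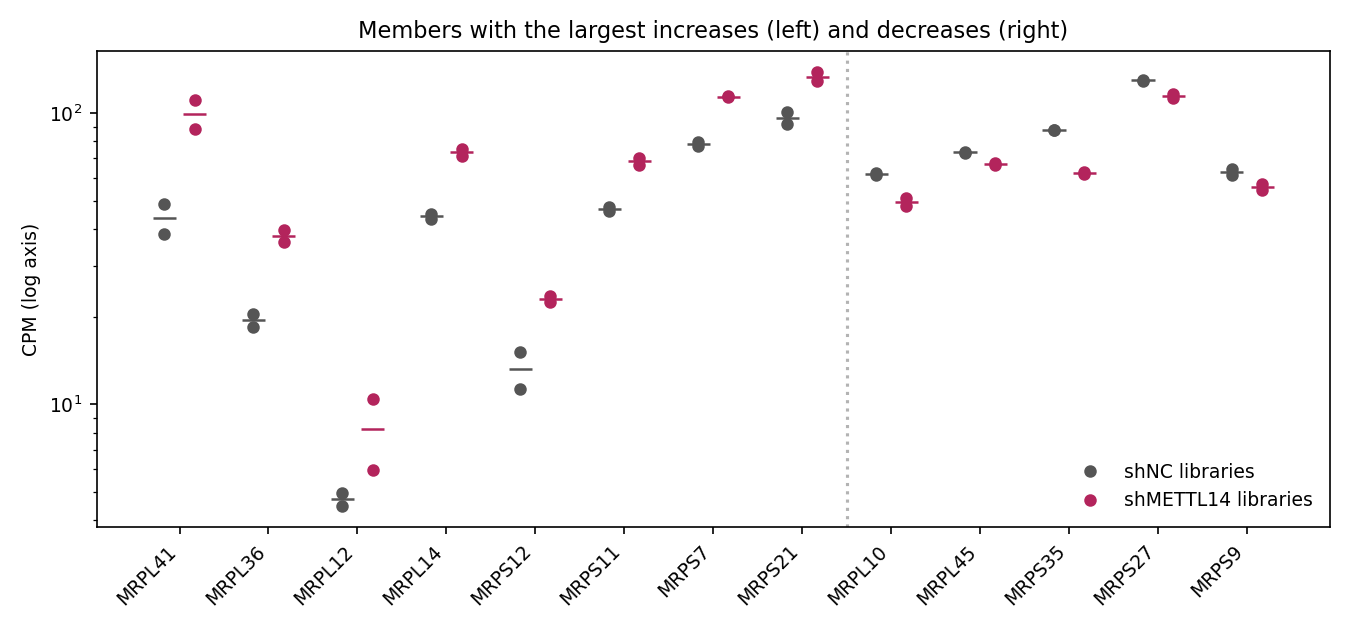
CPM on a log axis in each library for the 4 largest increases called in each subunit and the 5 members called lower. MRPS28 (log2 fold change 1.18) is not drawn, since its expression was below the limit used to pick these genes. Points are the 2 libraries of a group and short lines their mean. The groups do not overlap in any of the 13 genes, and the shMETTL14 libraries of MRPL12 lie far apart at 5.98 and 10.4 CPM.

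Of the 3 mammalian paralogs of bacterial S18, 1 was called. MRPS18C, the form in the place of bacterial S18, had 584 and 643 counts in shNC and 771 and 764 in shMETTL14 and rose by 0.33 (SE 0.0773, edgeR adjusted p = 0.001). MRPS18A had 931 and 929 counts in shNC and 1020 and 990 in shMETTL14 (0.12, adjusted p = 0.1). MRPS18B had 1483 and 1334 counts in shNC and 1445 and 1473 in shMETTL14 (0.06, adjusted p = 0.35), and its groups overlapped. The differences between the paralogs were not tested.

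Proteins with a bacterial counterpart and proteins added in mitochondria were counted apart. Of 45 tested genes with a counterpart, 34 were higher and 2 lower (median log2 fold change 0.31), and of 30 tested mitochondria-specific genes, 15 were higher and 3 lower (median 0.22). The 15 tested small subunit genes with a counterpart had 10 higher and 1 lower (median 0.33), and the 12 mitochondria-specific ones had 4 higher and 2 lower (median 0.06). In the large subunit the corresponding medians were 0.30 and 0.24. These counts are a description, and the difference between the classes was not tested.

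Levels per length spanned a wide range in the control cells. Expressed as mean CPM per kb of annotated exon in shNC, the median member stood at 20.3, with 22.0 for large and 13.7 for small subunit genes. MRPL15 was the highest large subunit gene by this level at 93.8, and its log2 fold change was 0.39 (2071 and 2289 counts in shNC, 2814 and 2864 in shMETTL14, edgeR adjusted p = 2.4e-06). MRPS34 was the highest small subunit gene at 122, with 2569 and 2662 counts in shNC and 3461 and 3688 in shMETTL14 (log2 fold change 0.46, adjusted p = 5.4e-08). In both genes the groups did not overlap.

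The lowest levels were mainly those of genes whose coding bases lie inside exons of another gene on the same strand. This held for at least 50% of the coding bases of 8 members in GENCODE 29, and the median level of these 8 was 0.643 CPM per kb, against 21.9 for the other 70. MRPL53, of whose coding bases 100% and of whose exon bases 45.2% lie inside exons of CCDC142, had 0 counts in each of the 4 libraries, and MRPS24 (92.2%, with URGCP-MRPS24) had 7 and 11 counts in shNC and 5 in each shMETTL14 library. Neither was tested. MRPL53 at 0 counts allows at most 3 counts per library, which covers counting error only.

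Further genes of this kind were MRPS17 (100% of its coding bases), MRPL12 (96%), MRPL30 (95.3%), MRPL38 (94.1%), MRPL46 (64%) and MRPS28 (53%). MRPL30 stood apart with 1338 and 1172 counts in shNC and 1211 and 1139 in shMETTL14, and was not called (-0.08). MRPS17 had 117 and 102 counts in shNC and 91 and 76 in shMETTL14 (-0.38, edgeR adjusted p = 0.077). MRPS28 had 26 and 25 counts in shNC and 46 and 69 in shMETTL14 (1.18, SE 0.298, adjusted p = 0.0021), and without shMETTL14 replicate 2 it was 0.85 (adjusted p = 0.069). The overlapping read-through genes of MRPL12, MRPS17 and MRPS28 had 0 counts in all 4 libraries.

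Reads that fitted more than 1 gene were set aside as ambiguous in the deposited table, and they made up 5.01% to 5.32% of all its counts. The part of this in the low counts was not tested. MRPL2 was also low, with 33 and 32 counts in shNC and 24 and 35 in shMETTL14, although 0% of its coding bases overlap a gene on its own strand. The strand setting of the counting is not given in the sources used here, and 41 members share exon bases with another gene on either strand, so some of their reads may belong to the partner. Counts of the 79 pseudogenes summed to between 43 and 53 per library, beside 87026 to 104527 counts in the members. Without the 8 genes with 50% or more overlap, a choice made after seeing the data, 34 of 44 large subunit genes were higher and 2 lower, and 14 of 26 small subunit genes were higher and 3 lower.

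**Figure D3:**
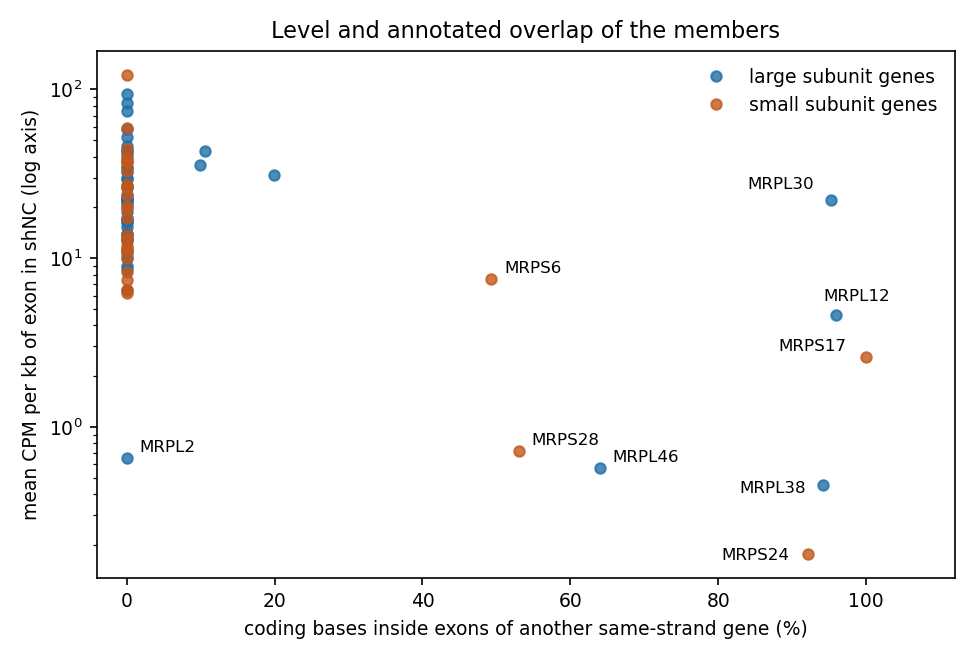
Mean level in shNC (CPM per kb of exon, log axis) against the percentage of a member's coding bases inside exons of another gene on its strand. MRPL53 is not drawn since its level is 0. Apart from MRPL30, the named genes at 50% or more lie below 5 CPM per kb, as does MRPL2 at 0%.

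The fold change also varied with the length of the coding sequence. Over the 76 members tested, Spearman's rho between log2 fold change and coding length was -0.46 and that with exon GC content was 0.32, as descriptions over genes that share libraries. The 38 members with the shortest coding sequences (207 to 603 bases) included 30 of the higher genes, with a median log2 fold change of 0.33. The 38 longer ones (615 to 1449 bases) included 20 of the higher genes and all 5 of those called lower, with a median of 0.17. With transcript length, rho over the members was -0.27. In the rest of the data, genes with short transcripts were called higher more often. Among tested protein-coding genes with transcripts of up to 1997 bases, the lowest quartile, 39.5% of 3141 other genes were higher and 17.9% lower (median 0.13). There, 41 of 62 members were higher (66.1%) and 4 lower (median 0.26). In quartiles 2, 3 and 4 the members had medians of 0.10 (7 members), 0.32 (6) and 0.34 (1). Other genes had medians of 0.05, 0.02 and -0.05 there. The part of transcript length in the members' result was not tested.

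**Figure D4:**
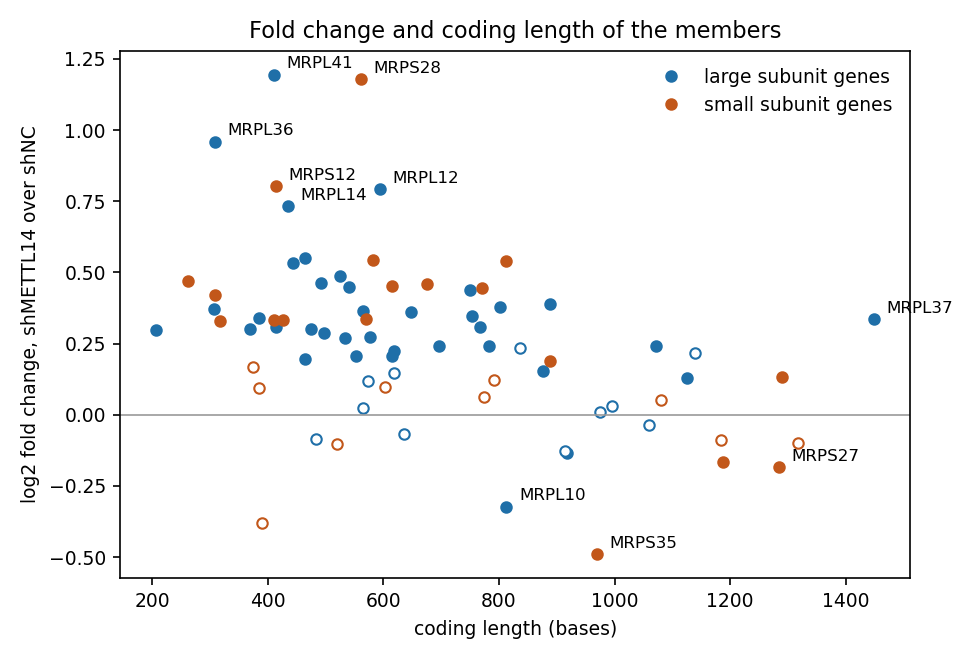
Log2 fold change (shMETTL14 over shNC) against coding length in bases for the 76 members tested. Filled points passed the adjusted p of 0.05. All 5 members called lower have coding sequences of 813 bases or more, and MRPL37, the longest at 1449 bases, rose by 0.34.

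The promoters were read for letters bound by factors that are known to act on genes of mitochondria. RefSeq windows from 250 bases before to 50 bases after the gene start (GRCh38.p14) matched 70 of the 78 members. The letters AAGATGGCG, a core of YY1 sites, stood in 13 of 70 windows (18.6%), beside 2.74% of 15843 windows of all genes. In most of these 13 they lie after the RefSeq start on the gene's own strand, from position 7 (MRPL38) to position 36 (MRPL22). In MRPL32, MRPL36 and MRPL52 they lie before it. The letters CCGGAAGT, a core of sites for ETS factors such as GABPA, stood in 11 (15.7%), beside 6.19%. Those of NRF1 (GCGCATGCG) stood in 3 (4.29%, beside 2.76%), those of an E-box (CACGTG) in 7 (10%, beside 8.88%), those of CRE (TGACGTCA) in 0 (beside 2.59%), and those of SP1 (GGGCGG) in 43 (61.4%, beside 58.5%). Both strands were searched, and none of these motifs contains another. A match is a description of the letters and not of binding.

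The windows below belong to the member with the largest change and to members called higher that hold YY1 or ETS letters. Capitals mark YY1 or ETS letters on either strand. MRPL41 holds neither, and MRPL36 holds YY1 letters 36 bases before its RefSeq start. MRPL52 holds YY1 letters at 2 places and ETS letters. MRPL20 and MRPS34 hold ETS letters 44 and 20 bases before their RefSeq starts. For MRPL36 and MRPL41 the RefSeq start lies inside the GENCODE 29 gene span, and the windows do not reach the GENCODE 29 start. The MRPL36 window is therefore not the start region beside NDUFS6.
MRPL41 promoter, chr9:137551629-137551928, plus strand: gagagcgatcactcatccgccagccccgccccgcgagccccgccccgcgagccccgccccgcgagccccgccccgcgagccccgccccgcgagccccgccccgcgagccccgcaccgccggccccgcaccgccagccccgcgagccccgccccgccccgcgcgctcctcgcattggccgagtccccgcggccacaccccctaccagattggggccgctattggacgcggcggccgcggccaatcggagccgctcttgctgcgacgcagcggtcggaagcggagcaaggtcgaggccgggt
MRPL36 promoter, chr5:1799788-1800087, minus strand: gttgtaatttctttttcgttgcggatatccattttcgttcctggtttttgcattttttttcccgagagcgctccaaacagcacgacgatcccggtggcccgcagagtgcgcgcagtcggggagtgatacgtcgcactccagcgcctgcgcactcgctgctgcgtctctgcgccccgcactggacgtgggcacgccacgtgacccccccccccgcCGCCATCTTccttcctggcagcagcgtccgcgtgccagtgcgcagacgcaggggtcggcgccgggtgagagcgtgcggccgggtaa
MRPL52 promoter, chr14:22829637-22829936, plus strand: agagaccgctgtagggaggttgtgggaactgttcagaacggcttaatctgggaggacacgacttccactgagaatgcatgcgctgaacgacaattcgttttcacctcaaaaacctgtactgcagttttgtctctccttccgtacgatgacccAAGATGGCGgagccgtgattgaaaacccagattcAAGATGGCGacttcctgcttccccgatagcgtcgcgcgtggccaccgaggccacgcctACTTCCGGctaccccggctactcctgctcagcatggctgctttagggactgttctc
MRPL20 promoter, chr1:1407244-1407543, minus strand: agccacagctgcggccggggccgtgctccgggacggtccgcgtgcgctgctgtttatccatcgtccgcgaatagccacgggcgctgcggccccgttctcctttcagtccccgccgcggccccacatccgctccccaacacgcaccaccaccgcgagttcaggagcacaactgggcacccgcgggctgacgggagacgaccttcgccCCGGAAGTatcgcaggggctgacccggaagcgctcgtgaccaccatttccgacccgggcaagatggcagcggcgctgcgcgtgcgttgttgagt
MRPS34 promoter, chr16:1773085-1773384, minus strand: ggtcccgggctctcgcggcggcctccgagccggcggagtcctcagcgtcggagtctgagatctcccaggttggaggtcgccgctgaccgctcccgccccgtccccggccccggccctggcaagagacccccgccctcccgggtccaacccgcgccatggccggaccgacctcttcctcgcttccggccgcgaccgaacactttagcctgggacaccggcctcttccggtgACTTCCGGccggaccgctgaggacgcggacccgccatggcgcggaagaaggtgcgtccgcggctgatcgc

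Of 10 tested members with the ETS letters, 8 were higher (median log2 fold change 0.35), and of 58 without them, 37 were higher and 4 lower (median 0.24). Of 12 tested members with the YY1 letters, 5 were higher (median 0.21), and of 56 without them, 40 were higher and 4 lower (median 0.31). The 3 members with NRF1 letters (MRPL17, MRPL22 and MRPS18C) were all higher. The motif classes were not tested against each other.

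Many members share their start region with another gene. A coding gene in the opposite direction began within 1000 bases of 18 of the 78 members (23.1%), beside 8.18% of 19951 protein-coding genes. Of the 17 neighbours tested, 4 were higher (23.5%) and 3 lower (17.6%), with a median log2 fold change of -0.003. The shares over all genes tested were 27.2% and 25.3%. Of the 18 members, 14 were higher and 1 lower, with a median of 0.32. MRPL27 (0.53), MRPL50 (0.30) and MRPS18C (0.33) were higher while their neighbours EME1 (-0.23), ZNF189 (-0.35) and HELQ (-0.30) were lower. MRPL18 and TCP1, a chaperonin gene, were both higher (0.45 and 0.22). MRPS11 and MRPL46 form such a pair of their own and start 34 bases apart. Each is counted both as a member and as a neighbour, and MRPS11 is 1 of the 4 higher neighbours.

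Of 5 genes for mitochondrial ribosomal proteins that carry other symbols, 4 were higher in edgeR's test, and PTCD3 was not called (-0.10, adjusted p = 0.061), though with upper quartile scaling it counted as lower. CHCHD1 had 607 and 599 counts in shNC and 944 and 1052 in shMETTL14 (log2 fold change 0.74, edgeR adjusted p = 2.4e-08). AURKAIP1 and GADD45GIP1 rose by 0.58 and 0.45. DAP3, a GTP-binding protein of the small subunit, rose by 0.24.

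Factors that build the ribosome or run translation were called in each direction at shares near those of all genes tested. Of 26 assembly factors, 8 were higher (30.8%) and 6 lower (23.1%), with a median log2 fold change of 0.09. MPV17L2, MALSU1 and TRUB2 rose most clearly by adjusted p, by 0.79, 0.51 and 0.40, and METTL15, YBEY and NOA1 fell by 0.69, 0.98 and 0.45. METTL15, which methylates the small subunit rRNA, had 564 and 594 counts in shNC and 327 and 386 in shMETTL14 (edgeR adjusted p = 2.2e-06). Of 18 translation factors, 5 were higher (27.8%) and 4 lower (22.2%), with a median of 0.03, and with upper quartile scaling 5 were higher and 6 lower (median -0.033). SLIRP rose by 0.45 while its partner LRPPRC, with which it stabilises mitochondrial mRNAs, fell by 0.30. The elongation factor GFM1 and the activator TACO1 rose by 0.33 and 0.37, and the initiation factor MTIF2 and GUF1 fell by 0.35 and 0.29.

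Of 14 tested genes for mitochondrial transcription and its regulators, 7 were higher (50%) and 2 lower (14.3%), with a median of 0.18. Of all genes tested, 27.2% were higher and 25.3% lower. With upper quartile scaling 7 of the 14 were higher and 4 lower. MYCN, the amplified driver of this line, had 52554 and 49710 counts in shNC and 61727 and 61457 in shMETTL14 (log2 fold change 0.28, SE 0.0334, edgeR adjusted p = 3.8e-07). PPRC1, a coactivator of the PGC-1 family, rose by 0.60 (adjusted p = 2e-09), and PPARGC1B and GABPB1 rose by 0.53 and 0.39. GABPA, the DNA-binding partner of GABPB1, fell by 0.50 (adjusted p = 6.3e-08), and TEFM fell by 0.53. TFAM, which packages mitochondrial DNA, rose by 0.27 and POLRMT, the mitochondrial RNA polymerase, was at 0.01 (adjusted p = 0.88).

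Of the 13 mitochondrially encoded mRNAs, which this ribosome translates, 9 were higher (69.2%) and 1 lower (7.69%), with a median log2 fold change of 0.27. Of all genes tested, 27.2% were higher and 25.3% lower. MT-CO1, MT-ND5 and MT-ATP8 were not called, at 0.06, -0.08 and 0.40. MT-CO2 had 152014 and 147291 counts in shNC and 214029 and 209094 in shMETTL14 (0.51, SE 0.031, edgeR adjusted p = 1.1e-11). MT-CYB and MT-ATP6 rose by 0.51 and 0.50, and MT-ND4L fell by 0.22. The rRNAs of the mitochondrial ribosome were not called, with MT-RNR1 at 0.08 (edgeR adjusted p = 0.056) and MT-RNR2 at -0.03 (edgeR adjusted p = 0.52). The libraries were made with an mRNA-seq kit, so counts of these rRNAs may not follow their amount in the cells. MT-RNR1 was called higher with no filter, with the replicate block and without shNC replicate 1, and MT-RNR2 was called lower with upper quartile scaling and without shNC replicate 2. The overlap of MT-ND4L with MT-ND4 makes its own value uncertain.

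Cytosolic ribosomal protein genes, the nearest family by function, were called lower more often than higher. Of 85 tested, 11 were higher (12.9%), 35 lower (41.2%) and 39 not called (median log2 fold change -0.08). The shares over all genes tested were 27.2% higher and 25.3% lower. With upper quartile scaling 7 of the 85 were higher and 50 lower, beside 21.8% and 30.4% of all genes tested. Without shMETTL14 replicate 1, 15 were higher and 23 lower (median -0.024), and without shNC replicate 2, 16 were higher and 27 lower (median -0.044). Without shMETTL14 replicate 2, 6 were higher and 47 lower (median -0.15), and without shNC replicate 1, 6 were higher and 48 lower (median -0.13). RPL6, RPL3 and RPSA fell by 0.45, 0.40 and 0.38, and RPL36AL, RPL26L1 and RPL39L rose by 0.59, 0.41 and 0.39. The sum over the family was 66883 and 71419 CPM in shNC and 61470 and 65661 CPM in shMETTL14, 91.9% of the control mean, with both knockdown libraries below both controls. Reads of cytosolic ribosomal genes can be shared with their many pseudogenes, so single values are less certain than those of the mitochondrial family.

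**Figure D5:**
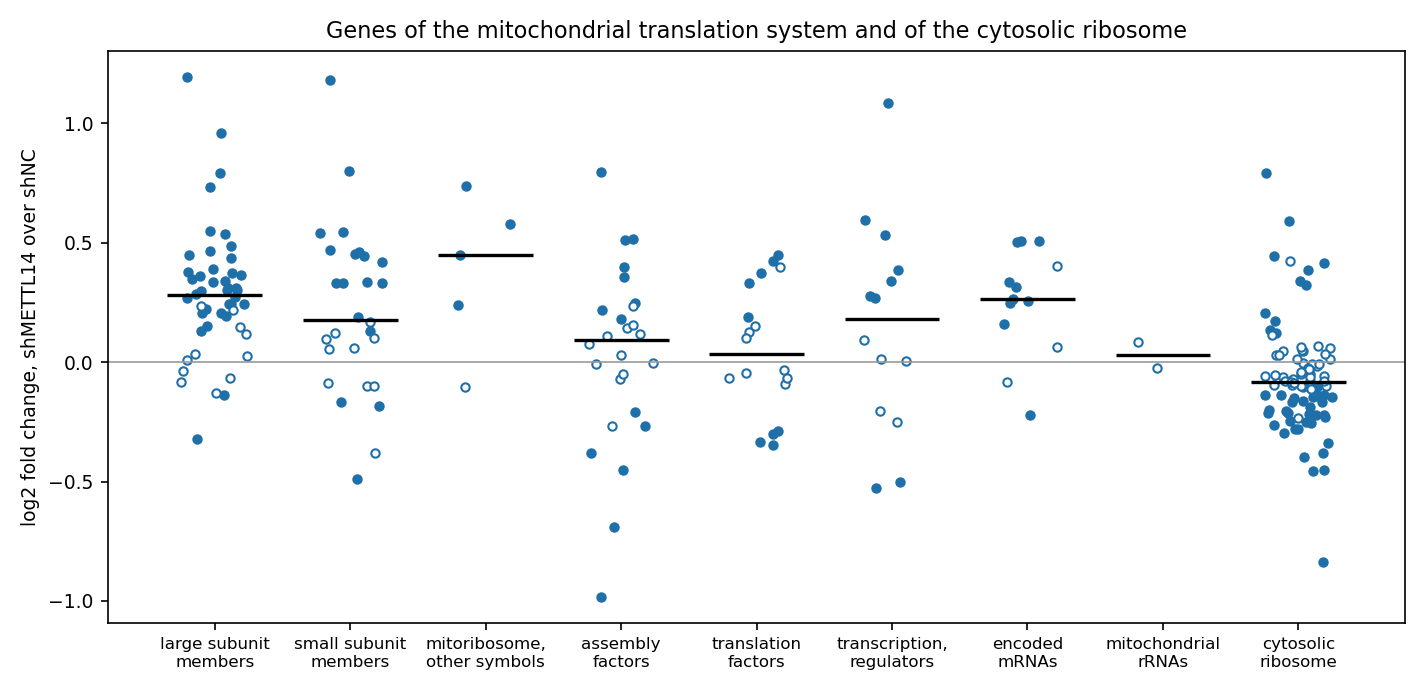
Log2 fold change (shMETTL14 over shNC) of each tested gene in 9 groups. Filled points passed the adjusted p of 0.05, horizontal positions within a group are arbitrary and black lines are medians. Medians of the subunit genes (0.28 and 0.18) and of the encoded mRNAs (0.27) lie above 0, that of the cytosolic ribosome (-0.08) below it.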

How the data were processed

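Total RNA of SK-N-BE(2) cells was extracted, made into 4 libraries with an mRNA-seq kit and read as paired ends of 150 bases on a NovaSeq instrument. As deposited by the authors, the data were 1 table of raw, unnormalized read counts by Ensembl gene ID, in the layout of htseq-count. The submitters' processing notes name HISAT2 2.1.0, StringTie 1.3.6, HTSeq 0.13.5, edgeR and the builds GRCh38 and hg38, without a role or an order. The annotation release and the strand setting are not given in the sources used here. Lines that name no gene held 19.1% to 19.9% of the counts of a library and did not enter library sizes or tests.

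Symbols were taken from a table of gene names (60401 of the IDs were found), and coordinates, lengths and overlaps from GENCODE 29 on GRCh38. Counts were tested with edgeR 4.0.16 in R 4.3.3 (TMM scaling, filterByExpr with its minimum count of 10 and total of 15, quasi-likelihood F-test, group as the only term), with Benjamini-Hochberg adjustment over all 16309 genes tested and a threshold of 0.05. The procedure was tested on simulated data. Subunit sums are sums of CPM and have no p. Genes with a count of 3 or fewer were taken as at the floor. DESeq2 1.42.0, other scalings, other filters, a replicate block and the removal of each library were the alternatives. The members and the gene lists were chosen with earlier results of these data known.

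Every member could be named. Full values were given for METTL14, for the 4 largest increases and decreases called in each subunit (mean log2 CPM of at least 2, no overlap between groups), for the highest and lowest level per length, for genes not tested and for the genes with the roles described. Of each other list, up to 3 called genes per direction by adjusted p were named, with MT-RNR1, MT-RNR2, MYCN, POLRMT and TFAM. Libraries with the same replicate number did not deviate together (Pearson correlation 0.052 over genes), so the numbers were not taken as pairs.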

Additional observations from a re-analysis of the deposited data

How the results depend on the processing

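Between 42 and 50 members were higher under every alternative run without a fold limit, and 0 of 76 members were called with the other sign under any scaling, filter, left-out library, replicate block or DESeq2. Against TMM, the median log2 shift of all but weakly expressed genes was -0.07 with upper quartile scaling and -0.05 with library size alone. Unless a construction is named, the cause was not tested.

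Upper quartile scaling ended the calls of MRPL3, MRPL19, MRPL34, MRPL40 and MRPS5 and called MRPL30, MRPS17, MRPS25 and MRPS30 (-0.17, edgeR adjusted p = 0.013) lower. There, 9 members and 6 small subunit genes were lower, with medians of 0.20 over all members, 0.21 in the large and 0.11 in the small subunit. It gave 1 lower ribosomal protein under another symbol (median 0.38), 4 lower transcription genes (median 0.11), 2 lower encoded mRNAs (median 0.20), 1 lower rRNA (median -0.039) and 7 higher cytosolic ribosomal genes. The medians of assembly and translation factors were then 0.024 and -0.033. With library size alone, 8 members and 6 small subunit genes were lower (medians 0.23 over all, 0.24 and 0.13 by subunit), as were 1 protein under another symbol, 4 transcription genes (median 0.14) and 2 encoded mRNAs (median 0.22). Assembly and translation factors then had medians of 0.047 and -0.010.

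When every library had to hold 10 counts, MRPS5 lost its call and MRPS25 was called lower (6 members lower), 1 protein under another symbol was lower, and the medians were 0.084 for translation factors, 0.16 for transcription genes and 0.25 for encoded mRNAs. With no filter, 3 members and 1 large subunit gene were lower (MRPL45 and MRPS9 lost their calls), 1 rRNA was higher, and the medians of translation factors and transcription genes were 0.044 and 0.28. DESeq2 ended 8 member calls (MRPL19, MRPL22, MRPL34, MRPL40, MRPL45, MRPL54, MRPS5 and MRPS9). It called 3 members, 1 large subunit gene and 1 transcription gene lower and 6 cytosolic ribosomal genes higher (transcription median 0.27). With the replicate block no member gained or lost its call, 1 protein under another symbol and 2 encoded mRNAs were lower, 1 rRNA was higher, and the translation factor median was 0.067. A limit of 1.5-fold left 4 large and 2 small subunit genes higher and 0 lower in each by construction, and placing genes by structure changed the log2 difference of the subunit ratio to 0.067.

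Leaving out 1 library at a time, where the lone library was assumed to vary like the other group, gave 42 to 50 higher and 3 to 4 lower members (median 0.22 to 0.32), 1 to 2 lower large subunit genes (median 0.27 to 0.32) and a small subunit median of 0.14 to 0.19. It gave 0 to 1 lower proteins under other symbols (median 0.37 to 0.53), 1 to 3 lower transcription genes (median 0.17 to 0.19), 1 to 2 lower encoded mRNAs (median 0.23 to 0.30), 0 to 1 higher and 0 to 1 lower rRNAs, and 6 to 16 higher and 23 to 48 lower cytosolic ribosomal genes. The medians of assembly and translation factors ran from 0.0073 to 0.15 and from -0.016 to 0.074. Of the named members, MRPL12 ranged from 0.34 to 1.14. Genes with few counts (MRPS28, MRPL2, MRPL38 and MRPL46) had SEs of up to 0.328, so that changes of the size seen in most members were not detectable in them.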
